A study of Homo sapiens with 12 samples.

Results

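The expression of 38 genes of the ATF4 pathway and of the unfolded protein response was examined in A549, a human lung adenocarcinoma cell line. The genes were taken by name: each row of the deposited gene table that carries 1 of the 38 symbols was taken, and all 38 symbols were found, each in 1 row, among 60623 genes. The symbols and the lists below were chosen with earlier results of these data known. Their shares of called genes are therefore not those of lists set beforehand. RNA was sequenced from 4 stable lines made with a lentiviral vector and hygromycin selection and kept in RPMI with fetal bovine serum. The V line carried the empty vector, WT carried HA-tagged wild-type AHR (the aryl hydrocarbon receptor, a ligand-activated transcription factor), SA carried HA-AHR with the change S489A, which takes away the serine that the study examined as a site of the kinase PLK1, and SD carried HA-AHR with the change S489D, which mimics the phosphorylated serine. Each line gave 3 libraries, which the labels number as biological replicates, and all 4 lines share the A549 background, in which the endogenous AHR gene was still transcribed. There was 1 line per construct, and what belongs to the construct and what belongs to the line cannot be told apart. Nothing further says that the replicates were separate cultures, so the p-values measure the spread between these libraries, which may be technical.

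The endoplasmic reticulum (ER) folds secreted and membrane proteins, and a build-up of unfolded proteins there is sensed by PERK (encoded by EIF2AK3), IRE1 (ERN1) and ATF6. PERK and related kinases phosphorylate the translation factor eIF2alpha, which lowers protein synthesis in general but favours translation of ATF4, a transcription factor of genes for amino acid synthesis and transport, one-carbon metabolism and feedback on the stress itself. IRE1 splices the mRNA of XBP1, and spliced XBP1 and cleaved ATF6 drive genes for chaperones, disulfide isomerases and ER-associated degradation. The 38 genes were read in 2 arms, an ATF4 arm of 20 genes (factors, feedback genes, enzymes and secreted or surface targets of ATF4) and an ER arm of 18 genes (the sensors, XBP1, folding genes and genes of ER-associated degradation and the ER membrane). Because gene counts do not separate spliced from unspliced XBP1 mRNA, or phosphorylated from unphosphorylated proteins, all values below are of total mRNA.

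Promoters of both arms were searched for the short sequences through which these pathways are known to act. RefSeq windows from 250 bases before to 50 bases after each transcript start (GRCh38.p14) were found for 33 of the 38 genes, in 50 windows, and ALDH1L2, NUPR1, PDIA3, PSPH and SHMT2 had none in the table. The ER stress element (ERSE, read on both strands as CCAAT, 9 bases, then CCACG), to which NF-Y and ATF6 bind, stood in windows of 5 of 17 genes of the ER arm and of 0 of 16 of the ATF4 arm, against 0.0916% of the 27305 genes with a window. The stretches that hold it are shown on the strand of the gene with the element in capitals, because each of the 5 genes was called in at least 1 comparison with V below. ERN1, PDIA4, SEL1L and MANF of the ER arm were called there too, without this element in their windows. The stretches lie at chr19:12938379-12938408 (CALR, plus strand, before the gene), chr5:179698773-179698802 (CANX, plus strand, in an exon), chr22:49918549-49918578 (CRELD2, plus strand, in an intron), chr2:10812847-10812876 (PDIA6, minus strand, in an intron) and chr22:28800597-28800626 (XBP1, minus strand, at the edge of the first exon), by the GENCODE v44 annotation.
CALR: ccacgCGTGGTCGACCATCATTGGtcggtg
CANX: cccggCCAATCTTCACACTCCACGaagaat
CRELD2: cctctCGTGGCGAACTCGGATTGGgccata
PDIA6: ccggaCCAATGAGCCGCAGCCACGgcttgg
XBP1: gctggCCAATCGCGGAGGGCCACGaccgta
In CALR and CRELD2 the element reads on the opposite strand.

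A second form, ERSE-II (ATTGG, 1 base, then CCACG), was found for HERPUD1, HYOU1 and SDF2L1, which is 3 of 17 genes of the ER arm, for 0 of 16 of the ATF4 arm and for 0.0696% of all genes with a window. HERPUD1, HYOU1 and SDF2L1 were not called in any pair below. The element lies at chr16:56932016-56932045 for HERPUD1 (plus strand) and chr22:21642105-21642134 for SDF2L1 (plus strand), both before the gene, and HYOU1 has 2 copies before the gene, of which that at chr11:119057264-119057293 (minus strand) is shown.
HERPUD1: cggacgccgATTGGGCCACGttgggagagt
HYOU1: ggcctgggaCGTGGTCCAATgagtacgcgc
SDF2L1: cctcggaagCGTGGACCAATcaaaaccctc
The composite site of a C/EBP and an ATF factor (TGATGNAA), through which ATF4 acts together with C/EBP proteins, stood in windows of ASNS, CEBPG and CHAC1, 3 of 16 genes of the ATF4 arm, and of HERPUD1 in the ER arm, against 4.46% of all genes with a window. Those of the ATF4 arm are shown with the site in capitals, at chr7:97872458-97872487 (ASNS, minus strand, exonic), chr19:33374060-33374089 (CEBPG, plus strand, intronic) and chr15:40953251-40953280 (CHAC1, plus strand, exonic).
ASNS: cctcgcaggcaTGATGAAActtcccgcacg
CEBPG: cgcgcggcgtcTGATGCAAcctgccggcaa
CHAC1: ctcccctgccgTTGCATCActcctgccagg
The UPR element core (TGACGTGG) was found for HYOU1 (0.927% of all genes), and a cAMP response element (TGACGTCA) for PPP1R15A (2.25% of all genes). The core of the xenobiotic response element bound by AHR (GCGTG), which is 5 bases long and overlaps some ERSE matches, was found for 14 of 16 genes of the ATF4 arm and 13 of 17 of the ER arm, against 40.6% of all genes. These matches are descriptions of the windows, and no binding was measured.

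The libraries held between 7844045 and 11765576 counts after rounding, so that a gene with 0 counts could lie at up to 0.255 to 0.382 CPM (the count of a gene scaled to the total of its library; the limit of 3 counts, which covers counting error only). The 38 genes took between 0.562% and 0.642% of the counts, and the lowest count of any of them in a library was 10 (NUPR1). As a check of the labels, AHR together with the overlapping gene record ENSG00000283321 had mean levels of 69.1 CPM for V, 469 for WT, 393 for SA and 296 for SD (n = 3 each). These levels set V apart from the lines with an AHR construct, but cannot show which construct a line carried. Count columns of SA and SD were assigned by the letter A or D in their names. Of the epithelial markers of A549, KRT8, KRT18, ALDH1A1, AKR1B10 and CDH1 were abundant while EPCAM and KRT19 were close to 0, and CDKN2A, which A549 cells have lost, was at 0 in all 12 libraries. Of the fibroblast, immune and endothelial markers, COL1A2, DCN, CD3E and VWF were at 0 in all 12 libraries, and the summed levels ranged from 5.59 to 13.2, from 21.7 to 36.7 and from 0 to 0.316 CPM, with COL1A1 and CD68 as their main contributors. SD replicates 1 and 3 differed most among the replicate pairs, with a chi-square of 6.77 per gene against 2.48 to 4.74 for the other pairs, and the comparisons with SD are therefore also given without SD replicate 1.

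Every test below is edgeR's two-sided quasi-likelihood test on the rounded expected counts of the 6 libraries of a pair, with p-values adjusted by Benjamini and Hochberg over all genes tested in that pair, and a gene is called changed at an adjusted p under 0.05. Single values are CPM with TMM-normalized library sizes, and differences are log2 fold changes with their standard error (SE). All 38 genes passed the filter on low counts in each pair. In a test of any difference among the 4 lines over all 12 libraries, 15 of the 38 genes were called, 8 of 20 in the ATF4 arm and 7 of 18 in the ER arm, where 6.41% of 15453 genes were called, and without V replicate 1 it called 8 of the 38. Of all genes tested, 3.62% were called without that library.

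The question of the first 3 comparisons was how a line with an AHR construct differs from the empty vector. In WT and SA, genes of the ER arm were lower than in V and a few enzymes of the ATF4 arm were lower too, while in SD the called genes lay mostly in the ATF4 arm. This describes which genes passed against V and is not a test between these lines, where 0 of the 38 genes were called. In SA, 1 of the 38 genes rose (3.88% of all genes tested rose) and 13 fell (3.29% of all fell). In WT, 1 rose (2.31% of all) and 12 fell (2.93% of all), and in SD 2 rose (2.92% of all) and 7 fell (2.49% of all). The ER arm gave 8 falls in SA, 9 in WT and 1 in SD, and no gene of it rose. The ATF4 arm gave 1 rise and 5 falls in SA, 1 and 3 in WT, and 2 and 6 in SD. Median log2 fold changes over the ER arm were -0.17 in SA, -0.16 in WT and -0.04 in SD, and over the ATF4 arm -0.11, -0.09 and -0.11, where the medians of all genes tested were within 0.01 of 0. Libraries did not overlap those of V for 21 of the 38 genes in SA, 21 in WT and 12 in SD. The same held for 23.8%, 21.9% and 21.4% of all genes tested. The 38 genes had a smaller median SE than all genes tested. It was 0.073 against 0.105 in SA, 0.072 against 0.106 in WT and 0.074 against 0.108 in SD. Median absolute log2 fold changes were 0.174 against 0.122, 0.148 against 0.110 and 0.098 against 0.114 in the same order. A smaller SE makes a call more likely at a given change, and its part in the shares above was not tested. The 3 comparisons share the V libraries, so their values are set side by side and are not independent of each other. Without V replicate 1, the calls dropped to 8 in SA and 5 in WT, without SA replicate 2 to 9 in SA, and without V replicate 2 to 5 in SD (MTHFD2, ASNS, PSAT1, VLDLR and ERN1). Calls over all genes tested dropped too. Without V replicate 1 they went from 7.17% to 4.08% in SA and from 5.24% to 2.88% in WT. They went to 4.77% in SA without SA replicate 2, and from 5.41% to 3.34% in SD without V replicate 2. Without SD replicate 1, 8 genes were called in SD (5.64% of all genes tested), of which 2 in the ER arm (ERN1 and PDIA4). The 5 genes called in WT without V replicate 1 were STC2, VLDLR, ERN1, PDIA3 and PDIA4.

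**Figure D1:**
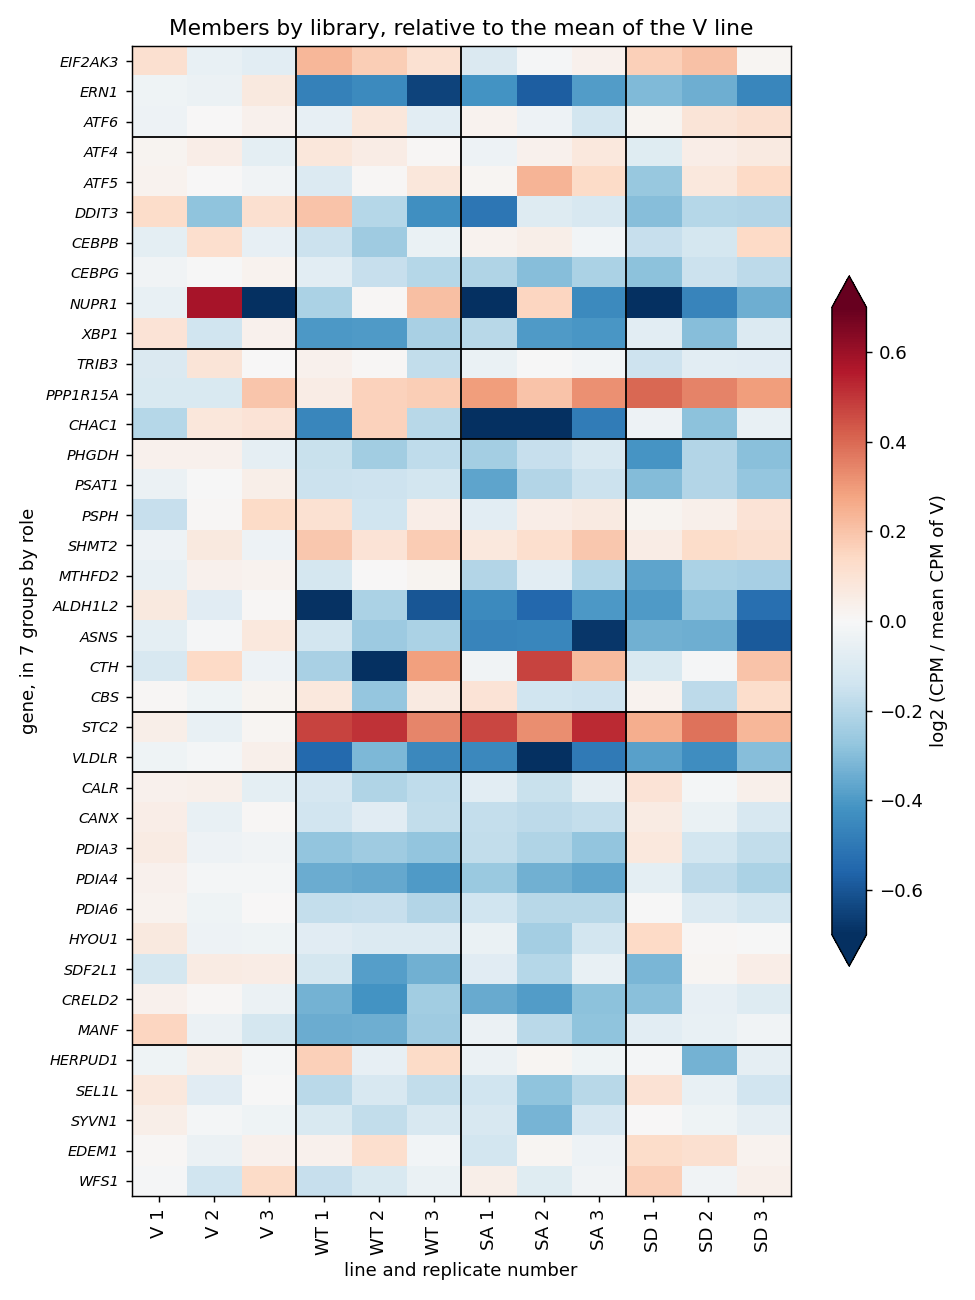
Log2 of the CPM of each of the 38 genes (rows, in 7 groups by role separated by black lines) in each of the 12 libraries (columns), relative to the mean CPM of the 3 V libraries. Red is higher and blue lower than V, and values beyond 0.7 in either direction take the end colours. ERN1, VLDLR and ALDH1L2 are blue and STC2 is red in each library of WT, SA and SD, and PDIA4 is bluer in WT and SA than in SD.

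Levels per length spanned a wide range. CPM per kilobase of exon (exon union of GENCODE v44, mean of 12 libraries) was highest for CALR (258), PDIA4 (170), CEBPB (136), PDIA6 (129) and PSAT1 (115) and lowest for CTH (1.51), EIF2AK3 (0.825) and NUPR1 (0.305). ATF4 stood at 74.3, XBP1 at 17.4, ATF6 at 3.45 and ERN1 at 1.71 on the same scale. All 9 folding genes were more abundant per length than the 3 sensors.

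Of the sensors, ERN1 fell in each line with an AHR construct, and EIF2AK3 and ATF6 were not called in any pair. ERN1 (ENSG00000178607, chr17:64039142-64130819, minus strand) encodes IRE1, the kinase and endoribonuclease that splices XBP1. The V libraries held 40.1, 39.8 and 43.0 CPM of ERN1, those of WT 29.5, 30.1 and 26.2, those of SA 30.7, 27.5 and 31.3 and those of SD 33.1, 32.4 and 29.8. The V libraries were all above the other 9, which overlapped among WT, SA and SD. The log2 fold change against V was -0.52 (SE 0.09, edgeR's adjusted p = 0.000237) in WT, -0.46 (SE 0.08, adjusted p = 0.000695) in SA and -0.37 (SE 0.09, adjusted p = 0.00968) in SD. The SD call was lost without V replicate 3 (adjusted p = 0.0654) or without SD replicate 3 (adjusted p = 0.0522). In these bulk samples, less RNA per cell and fewer cells with the RNA cannot be told apart.

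EIF2AK3 (ENSG00000172071, chr2:88556741-88627464, minus strand) encodes PERK, the sensor that acts through eIF2alpha and ATF4. In CPM, EIF2AK3 stood at 17.6, 15.7 and 15.5 (V), 19.1, 18.3 and 17.5 (WT), 15.1, 16.1 and 16.6 (SA) and 18.2, 18.8 and 16.4 (SD). The libraries of WT, SA and SD all overlapped V. Its log2 fold change against V was 0.17 (95% interval -0.08 to 0.41) in WT, -0.03 (-0.28 to 0.23) in SA and 0.13 (-0.12 to 0.38) in SD. ATF6 (ENSG00000118217, chr1:161766320-161964070, plus strand) encodes the membrane-bound factor that is cleaved in the Golgi on ER stress. Its 3 libraries gave 47.9, 49.2 and 50.2 CPM for V, 47.1, 51.9 and 46.6 for WT, 49.999, 48.0 and 45.0 for SA and 49.7, 52.3 and 53.1 for SD. These values overlapped among all lines, and the intervals against V were -0.17 to 0.14 in WT, -0.20 to 0.11 in SA and -0.08 to 0.23 in SD.

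Among the transcription factors, ATF4 itself was not called in any pair, XBP1 was lower in WT and SA, and CEBPG was lower in SA. ATF4 (ENSG00000128272, chr22:39519695-39522685, plus strand) is the factor that gives its name to the arm and is controlled largely at translation. ATF4 was at 181, 198 and 199.9 CPM for the SD libraries, 187, 196 and 201 for SA, 202, 199 and 193 for WT and 194, 198 and 183 for V. The libraries of all lines overlapped. Its fitted log2 fold change against V was 0.05 (95% interval -0.05 to 0.15) in WT, 0.02 (-0.08 to 0.13) in SA and 0.01 (-0.11 to 0.13) in SD, and edgeR's adjusted p was 0.696 or higher. Its ratio of the highest to the lowest line mean, 1.03, was the smallest of the 38 genes.

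XBP1 (ENSG00000100219, chr22:28794555-28800597, minus strand) encodes the factor that IRE1 activates by splicing. The V libraries held 64.6, 54.7 and 61.7 CPM of XBP1, those of WT 45.6, 45.8 and 51.5, those of SA 52.7, 45.9 and 45.5 and those of SD 57.4, 49.0 and 56.6. The WT and SA libraries lay below those of V, and SD lay between them and overlapped both. On the log2 scale the fold change was -0.34 (SE 0.08, edgeR's adjusted p = 0.00727) in WT, -0.33 (SE 0.08, adjusted p = 0.00863) in SA and -0.15 (SE 0.08, adjusted p = 0.358) in SD. Both calls were lost without V replicate 1 (adjusted p = 0.082 in WT and 0.0825 in SA), and that in SA also without SA replicate 2 (0.0586) or 3 (0.0671).

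CEBPG (ENSG00000153879, chr19:33373685-33382686, plus strand) encodes a partner of ATF4 with no activation domain of its own. In CPM, CEBPG stood at 85.5, 86.7 and 88.3 (V), 82.5, 77.8 and 75.5 (WT), 75.0, 70.6 and 74.5 (SA) and 71.1, 78.2 and 76.4 (SD). All 9 libraries of the AHR lines were below those of V. It was called in SA (log2 fold change -0.24, SE 0.06, edgeR's adjusted p = 0.0157) and not in WT (-0.15, adjusted p = 0.199) or SD (-0.20, adjusted p = 0.0682). The SA call was lost without V replicate 1 (adjusted p = 0.0537), V replicate 3 (0.07) or SA replicate 2 (0.102). DDIT3 (ENSG00000175197, chr12:57516588-57521737, minus strand) encodes CHOP, the stress factor downstream of ATF4. Its 3 libraries gave 6.07, 4.56 and 5.996 CPM for V, 6.35, 4.83 and 4.12 for WT, 3.91, 5.21 and 5.12 for SA and 4.50, 4.83 and 4.81 for SD. These low values overlapped among all lines, and the intervals of the log2 fold change against V, -0.62 to 0.35 in WT, -0.69 to 0.25 in SA and -0.69 to 0.23 in SD, were wide. ATF5 and NUPR1, both targets and co-factors of the stress response, and CEBPB, which dimerizes with ATF4, were not called in any pair. Their line means lay at 28.7 to 31.6 CPM for ATF5, 233 to 261 CPM for CEBPB and 1.30 to 1.94 CPM for NUPR1.

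**Figure D2:**
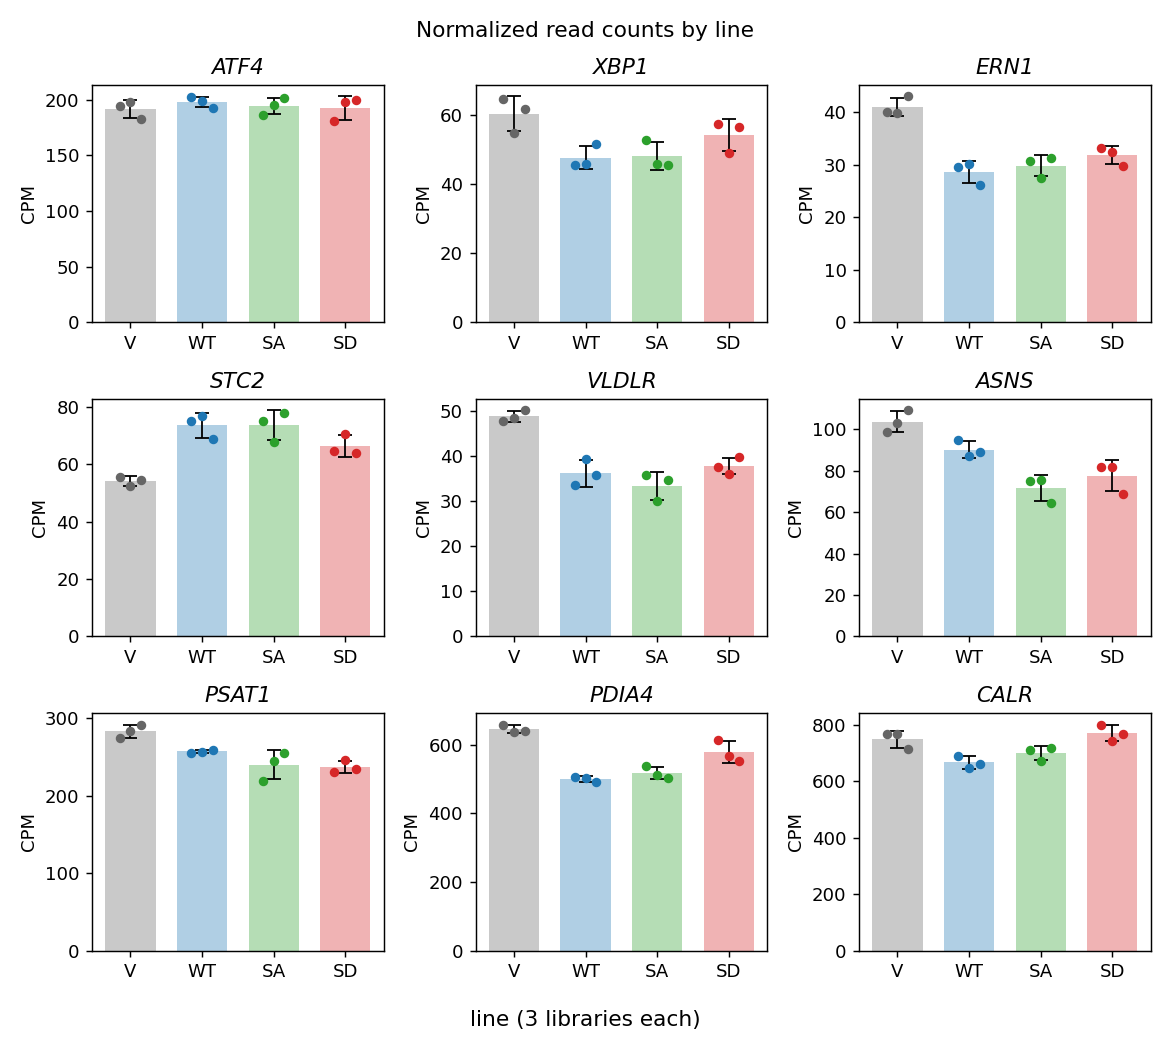
CPM of 9 of the genes in V, WT, SA and SD. Points are the 3 libraries of a line, bars their mean and error bars the standard deviation, on axes that start at 0. The ATF4 libraries of all lines overlap, ERN1, VLDLR and ASNS are highest and STC2 lowest in V, and PDIA4 is lower in WT and SA than in V, with SD between.

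Of the 3 genes of feedback and glutathione breakdown, PPP1R15A rose in SD and the rest were not called. PPP1R15A (ENSG00000087074, chr19:48872421-48876058, plus strand) encodes GADD34, the phosphatase subunit that reverses eIF2alpha phosphorylation. PPP1R15A was at 34.9, 33.6 and 32.3 CPM for the SD libraries, 32.4, 30.3 and 32.9 for SA, 27.3, 29.5 and 29.7 for WT and 24.5, 24.5 and 30.2 for V. All SD libraries were above those of V, and the WT libraries overlapped V. It rose in SD (log2 fold change 0.35, SE 0.10, edgeR's adjusted p = 0.0348) and was not called in SA (0.27, adjusted p = 0.0914) or WT (0.13, adjusted p = 0.563). The SD call was lost without V replicate 1 (adjusted p = 0.182), V replicate 2 (0.155), SD replicate 1 (0.0849) or SD replicate 2 (0.0989), with DESeq2 (0.0854) and with replicate number as a block (0.0585). TRIB3, a pseudokinase induced by ATF4, had line means of 77.8 to 83.3 CPM, and CHAC1, which degrades glutathione, of 3.03 to 4.72 CPM. Neither was called in any pair, and CHAC1 had the largest ratio of highest to lowest line mean among the 23 genes that the test over the 4 lines did not call (1.56).

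Of the 9 enzymes of serine, one-carbon, asparagine and transsulfuration metabolism, ASNS and ALDH1L2 fell in WT, ASNS, PSAT1 and ALDH1L2 in SA, and ASNS, PSAT1, PHGDH, MTHFD2 and ALDH1L2 in SD. ASNS (ENSG00000070669, chr7:97851677-97872542, minus strand) encodes asparagine synthetase, a textbook target of ATF4. The V libraries held 98.7, 103 and 109 CPM of ASNS, those of WT 94.8, 86.9 and 88.8, those of SA 75.1, 75.4 and 64.6 and those of SD 82.0, 81.8 and 68.9. All 9 libraries of the AHR lines were below V, and SA and SD were below WT. The log2 fold change against V was -0.53 in SA (SE 0.07, edgeR's adjusted p = 5.93e-06), -0.42 in SD (SE 0.07, adjusted p = 0.000375) and -0.20 in WT (SE 0.06, adjusted p = 0.0427). The ASNS counts were not whole in any library, so reads were shared with another record and its values are uncertain to that extent. The WT call was lost without V replicate 1, 2 or 3 (adjusted p = 0.0582, 0.0841 and 0.205) and without WT replicate 2 or 3 (0.164 and 0.156), as well as with DESeq2 (0.0798), with replicate number as a block (0.109) and with all 12 libraries in 1 fit (0.139).

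PHGDH and PSAT1 encode the first and second enzymes of serine synthesis. For PSAT1 (ENSG00000135069, chr9:78297125-78330093, plus strand), the libraries held 275, 283 and 291 CPM for V, 255, 256 and 259 for WT, 219, 245 and 255 for SA and 229.7, 246 and 235 for SD. The libraries of WT, SA and SD were all below V. Its fitted log2 fold change was -0.24 in SA (SE 0.05, edgeR's adjusted p = 0.00527), -0.26 in SD (SE 0.05, adjusted p = 0.00346) and -0.14 in WT (adjusted p = 0.0624). For PHGDH (ENSG00000092621, chr1:119648411-119744226, plus strand), the libraries held 87.2, 87.0 and 81.6 CPM for V, 76.5, 72.0 and 75.5 for WT, 72.2, 76.2 and 78.8 for SA and 64.1, 74.0 and 69.7 for SD. Again no library of an AHR line reached V. It was called in SD (-0.30, SE 0.07, adjusted p = 0.00824), a call lost without V replicate 1 (0.0538) or V replicate 2 (0.05), and not in WT (-0.20, adjusted p = 0.0686) or SA (-0.17, adjusted p = 0.116).

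MTHFD2 and ALDH1L2 encode mitochondrial enzymes of the folate cycle. For MTHFD2 (ENSG00000065911, chr2:74198610-74217565, plus strand), the libraries held 178, 188 and 188 CPM for V, 169, 185 and 187 for WT, 160.2, 176 and 161 for SA and 143, 158 and 157 for SD. The SD libraries were below those of V and of WT, and WT overlapped V. MTHFD2 fell in SD (log2 fold change -0.27, SE 0.06, edgeR's adjusted p = 0.00367) and had -0.16 in SA (adjusted p = 0.0774) and -0.03 in WT (adjusted p = 0.814). For ALDH1L2 (ENSG00000136010, chr12:105019784-105107643, minus strand), the libraries held 24.4, 22.0 and 23.4 CPM for V, 14.4, 19.9 and 15.4 for WT, 17.03, 15.9 and 17.6 for SA and 17.6, 19.2 and 16.1 for SD. The V libraries were above all others. Its log2 fold change was -0.47 in SA (adjusted p = 0.00682), -0.47 in WT (adjusted p = 0.0167) and -0.40 in SD (adjusted p = 0.0353), with SE of 0.11, 0.12 and 0.11. The WT call was lost without V replicate 1, WT replicate 1 or WT replicate 3 (adjusted p from 0.0985 to 0.101), and the SD call without V replicate 1, 2 or 3 or SD replicate 1 or 3 (0.0543 to 0.154) and with DESeq2 (0.0812). Both calls were also lost with replicate number as a block (edgeR's adjusted p = 0.0512 in WT and 0.0562 in SD). The other 4 enzymes, PSPH of serine synthesis, SHMT2 of the mitochondrial folate cycle and CTH and CBS of transsulfuration, were not called in any pair. SHMT2 had higher means in the AHR lines, with a log2 fold change against V of 0.15 in WT (adjusted p = 0.106), and CBS, whose counts were not whole in 4 libraries, shares reads with a near-identical copy.

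The secreted or surface targets moved in opposite directions. STC2 (ENSG00000113739, chr5:173314713-173329503, minus strand), which encodes stanniocalcin-2, a secreted glycoprotein induced by ER stress, was the only one of the 38 genes that rose in all 3 lines. In CPM, STC2 stood at 55.6, 52.3 and 54.6 (V), 75.1, 76.8 and 68.6 (WT), 74.9, 67.8 and 77.8 (SA) and 64.7, 70.6 and 63.7 (SD). All 9 libraries of the AHR lines were above those of V. On the log2 scale the fold change was 0.44 in WT (SE 0.07, edgeR's adjusted p = 0.000104), 0.44 in SA (SE 0.07, adjusted p = 0.000147) and 0.29 in SD (SE 0.07, adjusted p = 0.0148). The SD call was lost without V replicate 2 (adjusted p = 0.0794), V replicate 3 (0.0519) or SD replicate 2 (0.11). VLDLR (ENSG00000147852, chr9:2621787-2660056, plus strand), the receptor of very low density lipoprotein, fell in all 3 lines. Its 3 libraries gave 47.9, 48.5 and 50.2 CPM for V, 33.5, 39.3 and 35.7 for WT, 35.8, 29.97 and 34.6 for SA and 37.5, 36.1 and 39.7 for SD. No library of an AHR line reached the V range. The log2 fold change was -0.55 in SA (SE 0.08, adjusted p = 4.76e-05), -0.43 in WT (SE 0.08, adjusted p = 0.00105) and -0.37 in SD (SE 0.08, adjusted p = 0.00473).

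**Figure D3:**
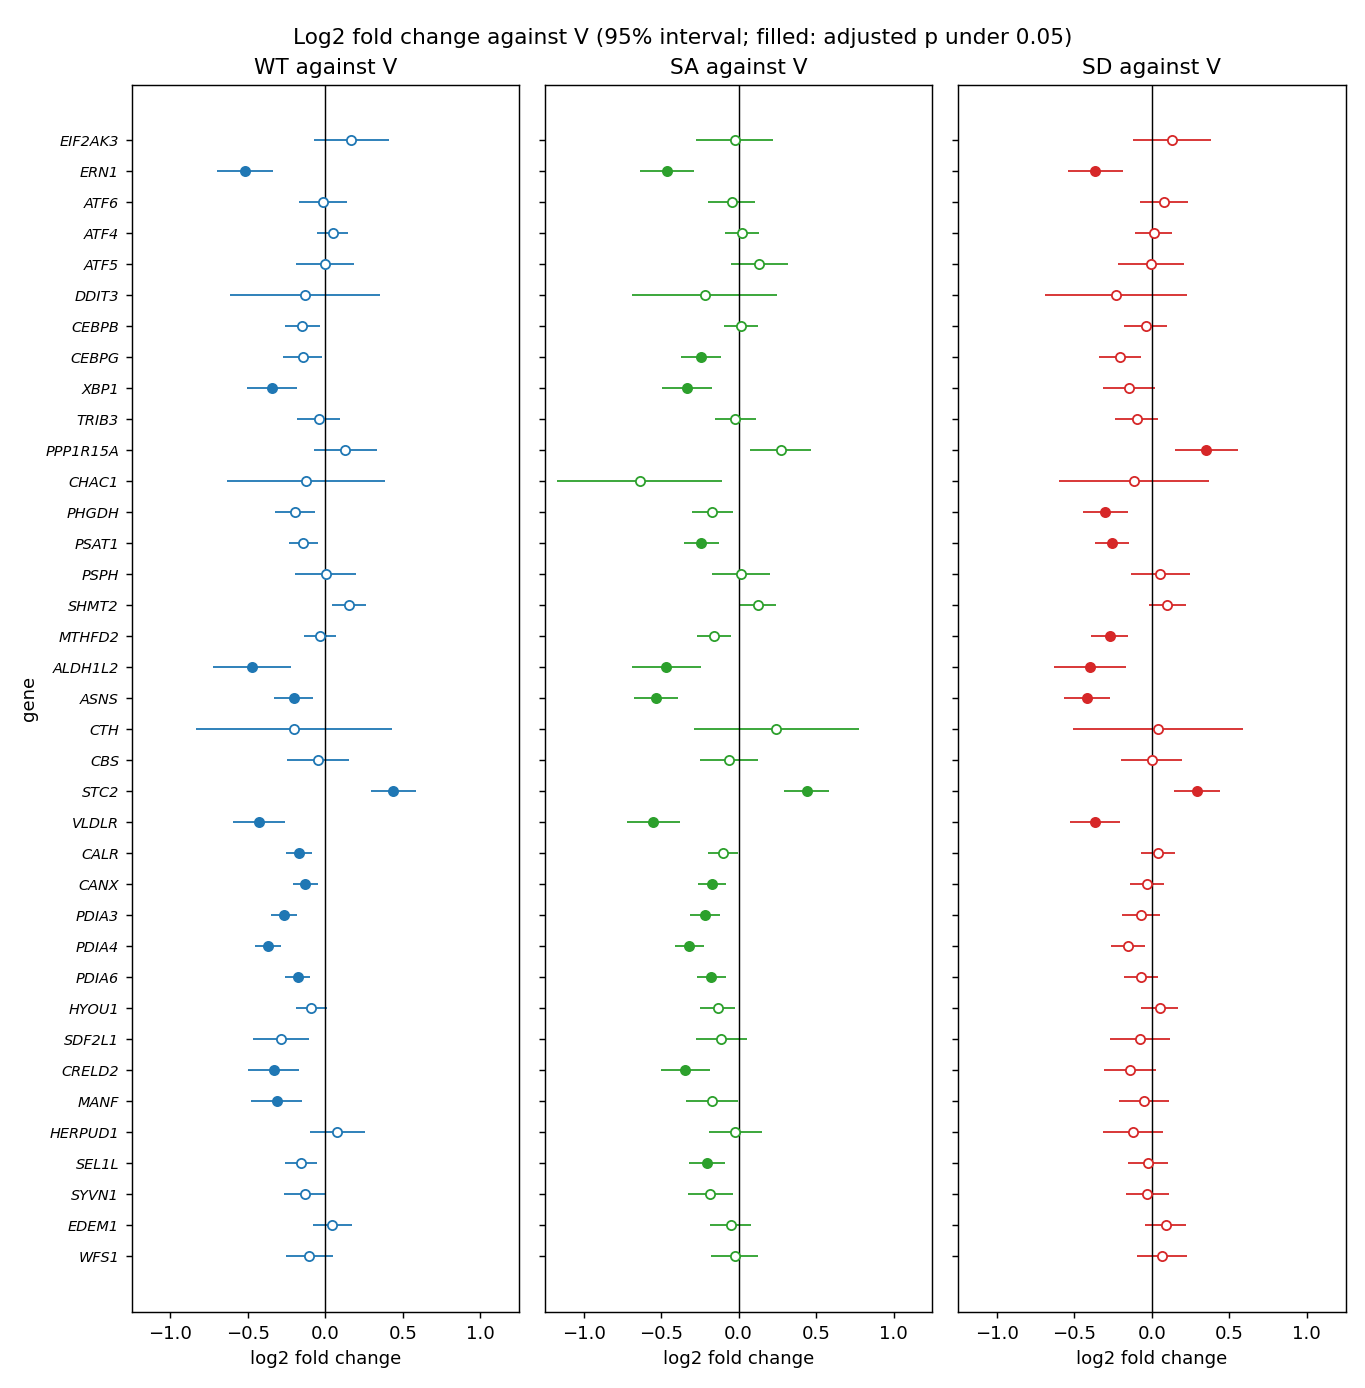
Log2 fold change against V of 37 of the 38 genes in WT, SA and SD, with 95% intervals from the quasi-likelihood fit (NUPR1 is left out for its wide interval). Filled points passed an adjusted p of 0.05. The points of CALR, CANX, PDIA3, PDIA4 and PDIA6 lie left of 0 in WT and SA, and in SD all their intervals but that of PDIA4 reach 0. VLDLR and ASNS are left of 0 and STC2 right of 0 in all 3 panels.

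Of the 9 folding genes of the ER, 7 fell in WT (2.93% of all genes tested fell), 5 in SA (3.29% of all) and 0 in SD (2.49% of all). In SD 1 of them, PDIA4, passed an unadjusted p of 0.05, and DESeq2 also called 0 of the 9 (4.15% of all genes tested). CANX, PDIA3, PDIA4, PDIA6 and CRELD2 fell in SA, and these and CALR and MANF fell in WT. The protein disulfide isomerases PDIA3, PDIA4 and PDIA6 form and reshuffle disulfide bonds. PDIA4 (ENSG00000155660, chr7:149003062-149028662, minus strand) had the smallest adjusted p of the 38 genes. PDIA4 was at 614, 568 and 554 CPM for the SD libraries, 538, 511 and 502 for SA, 506, 503 and 490.1 for WT and 658, 638 and 638 for V. V was above all other lines, and the SD libraries were above those of WT and SA. Its fitted log2 fold change against V was -0.37 in WT (SE 0.04, edgeR's adjusted p = 2.32e-07), -0.32 in SA (SE 0.05, adjusted p = 2.53e-05) and -0.15 in SD (SE 0.05, adjusted p = 0.0954), where the last was called without SD replicate 1 (-0.20, adjusted p = 0.0072).

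For PDIA3 (ENSG00000167004, chr15:43746410-43773278, plus strand), the libraries held 499, 469 and 473 CPM for V, 397, 405 and 397 for WT, 426, 416 and 398 for SA and 505, 439 and 426 for SD. WT and SA were below V, and SD overlapped V and SA. On the log2 scale the fold change was -0.27 in WT (edgeR's adjusted p = 8.70e-05) and -0.22 in SA (adjusted p = 0.00352), with SE of 0.04 and 0.05, and its counts were not whole in any library. For PDIA6 (ENSG00000143870, chr2:10783391-10837977, minus strand), the libraries held 580.0, 558 and 572 CPM for V, 508, 509 and 494 for WT, 518, 498 and 499 for SA and 569, 534 and 522 for SD. WT and SA were again below V. The log2 fold change was -0.18 in WT (adjusted p = 0.00542) and -0.18 in SA (adjusted p = 0.0143), with SE of 0.04 and 0.04. Without V replicate 1 the adjusted p was 0.056 for PDIA3 in SA, 0.0505 for PDIA6 in WT and 0.112 for PDIA6 in SA. The PDIA6 call in SA was also lost without V replicate 3 (0.0579), SA replicate 2 (0.09) or SA replicate 3 (0.0779).

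CALR and CANX encode calreticulin and calnexin, the lectin chaperones of glycoproteins. For CALR (ENSG00000179218, chr19:12938578-12944489, plus strand), the libraries held 767, 768 and 715 CPM for V, 691, 648 and 663 for WT, 712, 672 and 718 for SA and 802, 744 and 767 for SD. WT was below V and SD, and SD overlapped V. CALR fell in WT (log2 fold change -0.17, SE 0.04, edgeR's adjusted p = 0.0118), while its value was -0.10 in SA (adjusted p = 0.23) and 0.04 in SD (adjusted p = 0.758). For CANX (ENSG00000127022, chr5:179678628-179731641, plus strand), the libraries held 1372, 1282 and 1335 CPM for V, 1213, 1256 and 1181 for WT, 1183, 1173 and 1185 for SA and 1383, 1286 and 1229 for SD. The WT and SA libraries were below V. CANX fell by 0.13 in WT (adjusted p = 0.0494) and by 0.17 in SA (adjusted p = 0.0131) on the log2 scale, with SE of 0.04 and 0.04. Calls in WT were lost for CALR without V replicate 1 or 2 or WT replicate 2 or 3 (adjusted p from 0.0568 to 0.0914), and for CANX without V replicate 1 or 3 or WT replicate 1 or 3 (0.11 to 0.259), with replicate number as a block (0.131) and with all 12 libraries in 1 fit (0.153). The CANX call in SA was lost without V replicate 1 or 3 or SA replicate 2 (0.0579 to 0.133).

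CRELD2 and MANF encode small secreted or ER-resident proteins induced by ER stress. For CRELD2 (ENSG00000184164, chr22:49918167-49927540, plus strand), the libraries held 48.2, 47.4 and 45.9 CPM for V, 37.5, 35.3 and 39.9 for WT, 36.9, 36.0 and 38.7 for SA and 38.5, 45.4 and 44.4 for SD. All WT, SA and SD libraries were below those of V, and SD overlapped WT and SA. Its fitted log2 fold change was -0.34 in SA (edgeR's adjusted p = 0.00489), -0.33 in WT (adjusted p = 0.0101) and -0.14 in SD (adjusted p = 0.409). For MANF (ENSG00000145050, chr3:51385291-51389397, plus strand), the libraries held 62.2, 54.3 and 51.4 CPM for V, 44.1, 44.1 and 47.2 for WT, 54.4, 49.1 and 46.1 for SA and 53.3, 53.9 and 55.0 for SD. WT was below V, and SA and SD overlapped V. It fell in WT (log2 fold change -0.31, SE 0.08, adjusted p = 0.0172). The WT calls were lost without V replicate 1 (0.0622 for CRELD2 and 0.188 for MANF) or WT replicate 2 (0.0674 and 0.0641), and for MANF without WT replicate 1 (0.0651) and with replicate number as a block (0.0614). HYOU1, a chaperone of the HSP110 family, and SDF2L1, a partner of the ER chaperone cycle, were not called in any pair, with line means of 173 to 197 CPM and 35.2 to 42.6 CPM.

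Of the 5 genes of ER-associated degradation and the ER membrane, SEL1L was called, in SA, and the rest were not called in any pair. SEL1L (ENSG00000071537, chr14:81471547-81533853, minus strand) is the adaptor of the ubiquitin ligase that SYVN1 encodes. The V libraries held 180.4, 162 and 171 CPM of SEL1L, those of WT 150.2, 159 and 152, those of SA 156, 141 and 150.0 and those of SD 184, 165 and 156. SA and WT were below V, and SD overlapped V. On the log2 scale the fold change was -0.21 in SA (SE 0.06, edgeR's adjusted p = 0.0219), -0.16 in WT (adjusted p = 0.0741) and -0.02 in SD (adjusted p = 0.893). The SA call was lost without V replicate 1 or 3 or SA replicate 2 or 3 (adjusted p from 0.069 to 0.188). Line means were 65.0 to 73.6 CPM for SYVN1, 31.8 to 36.9 CPM for HERPUD1, which recruits that ligase, 78.2 to 86.0 CPM for EDEM1, which marks misfolded glycoproteins, and 59.4 to 66.6 CPM for WFS1, an ER membrane protein.

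The next comparisons asked how the lines with an S489 change differ from each other and from the WT line. Their AHR RNA, counted with the overlapping record, was not equal. The WT line had the highest mean (469 CPM), the SD line the lowest (296 CPM), and the SA line lay between (393 CPM). A change at S489 therefore came together with another AHR level, and the part of that level in the differences below was not tested. Of the 38 genes, 0 were called by edgeR in SD against WT, where 0.708% of all genes tested were called, 0 in SD against SA (0.22% of all) and 0 in WT against SA (0.0803% of all). With p-values left unadjusted and a threshold of 0.05, 15 of 38 genes passed in SD against WT (10.6% of all genes tested), 9 in SD against SA (8.52% of all) and 3 in WT against SA (7.31% of all), which were CEBPB, ASNS and MTHFD2. DESeq2 called 3, 0 and 0 of the 38 genes in the same pairs (0.823%, 0.246% and 0.12% of all genes tested). The ER arm held 10 of the 15 genes in SD against WT and all 9 in SD against SA, and each had higher values in SD except HERPUD1, which was lower there than in WT. Over the 18 genes of the ER arm, 16 had a higher fitted level in SD than in WT (median log2 fold change 0.14) and 17 than in SA (0.14), while 9 were higher and 9 lower in WT than in SA (0.00). Medians of all genes tested were within 0.01 of 0 in each of these pairs. Without SD replicate 1, the counts of higher genes stayed at 16 and 17, the medians were 0.11 and 0.12, and 7 and 3 genes had an unadjusted p under 0.05. The pairs with SD share its libraries.

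**Figure D4:**
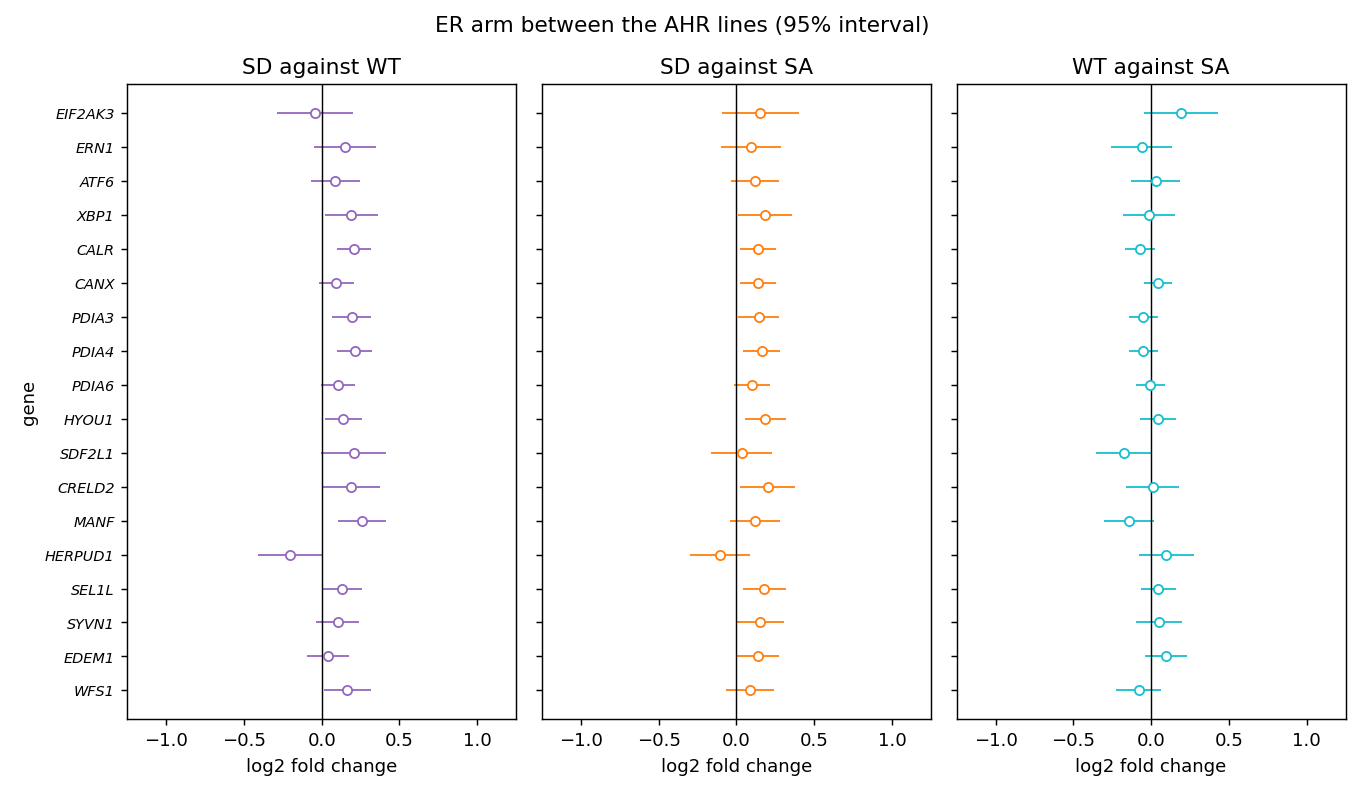
Log2 fold change of the 18 genes of the ER arm between the lines with an AHR construct, with 95% intervals from the quasi-likelihood fit. Open points did not pass an adjusted p of 0.05, which holds for all of them. In both panels with SD nearly all points lie right of 0, with HERPUD1 to the left in both and EIF2AK3 to the left in the first, and in WT against SA they scatter around 0.

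The genes with the smallest adjusted p between SD and WT were MTHFD2, CALR and PDIA4. MTHFD2 was lower in SD (log2 fold change -0.24, SE 0.06, edgeR's adjusted p = 0.0548), and CALR (0.21, SE 0.05, adjusted p = 0.0673) and PDIA4 (0.21, SE 0.05, adjusted p = 0.0691) were higher there. In each of these 3 genes the SD and WT libraries did not overlap, which held for 13 of the 38 genes and for 16% of all genes tested. These 3 passed the adjusted p of 0.05 with DESeq2 (0.0198 for MTHFD2, 0.00241 for CALR and 0.00529 for PDIA4) and with all 12 libraries in 1 fit (0.035, 0.0276 and 0.0255). Between SD and SA, the interval of the log2 fold change was 0.04 to 0.28 for PDIA4, 0.05 to 0.32 for HYOU1, 0.04 to 0.32 for SEL1L and 0.02 to 0.25 for CALR. Intervals are not adjusted for the number of genes tested, and edgeR's adjusted p of these genes was 0.404, 0.381, 0.428 and 0.479. Between WT and SA, ASNS had the smallest adjusted p (0.33, SE 0.07, edgeR's adjusted p = 0.0691), with all WT libraries above those of SA, and it was called there without SA replicate 1 (0.36, adjusted p = 0.0453). Of all genes tested in that pair, 12.8% had libraries that did not overlap. For ATF4 the intervals were -0.16 to 0.08 in SD against WT, -0.14 to 0.11 in SD against SA and -0.08 to 0.13 in WT against SA. Those of ERN1 were -0.05 to 0.35, -0.10 to 0.29 and -0.25 to 0.14 in the same order, and those of XBP1 were 0.02 to 0.36, 0.01 to 0.35 and -0.18 to 0.16. For XBP1 edgeR's adjusted p was 0.393, 0.566 and 0.985.

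Summed over the 18 genes, the ER arm stood at 4832, 4614 and 4663 CPM in V, 4155, 4163 and 4065 in WT, 4239, 4068 and 4134 in SA and 4819, 4473 and 4395 in SD. The libraries of WT and SA lay below all those of V and SD, and SD replicate 1 was the highest of its line. Summed over its 20 genes, the ATF4 arm stood at 1622, 1701 and 1665 CPM in V, 1601, 1576 and 1605 in WT, 1528, 1578 and 1586 in SA and 1464, 1553 and 1572 in SD. Here V was highest, the other lines overlapped in part, and SD replicate 1 was the lowest library. These sums are dominated by the most abundant genes of each arm (CANX, CALR and PDIA4, and PSAT1, CEBPB and ATF4) and carry no test.

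**Figure D5:**
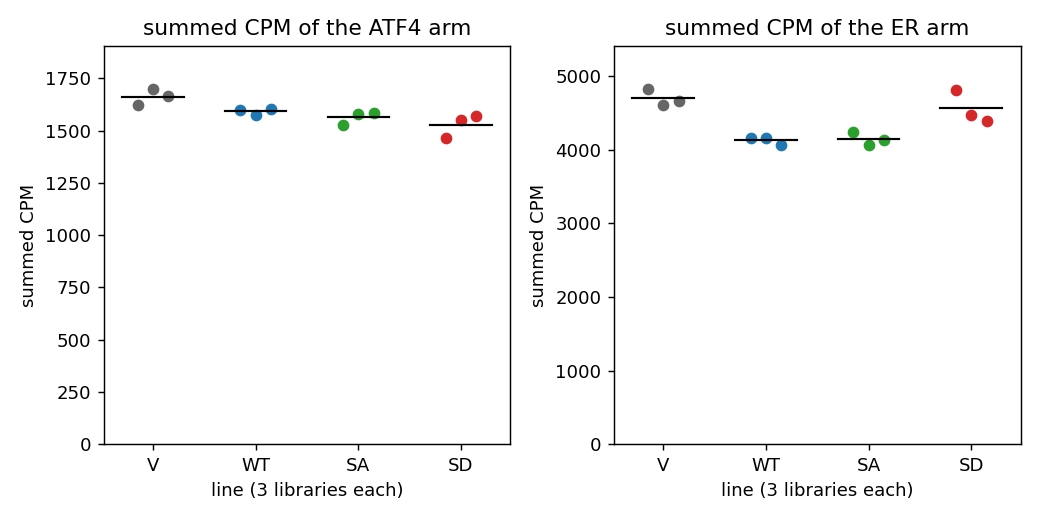
Summed CPM of the 20 genes of the ATF4 arm (left) and of the 18 genes of the ER arm (right) in the 3 libraries of each line. Points are libraries and black lines the line means, on axes that start at 0. In the ER arm the WT and SA points lie between 4065 and 4239 CPM, and all V and SD points are above them.

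Other genes of the same pathways were read from lists of 36 ATF4 pathway genes and 44 ER stress genes, also chosen with earlier results of these data known. Of the ATF4 list, 34 genes could be tested. In SA 3 rose (DDIT4, CEBPD and SLC38A2) and 6 fell, or 26.5% called against 7.17% of all genes tested. In WT 0 rose and 2 fell (GDF15 and AARS1), or 5.88% against 5.24% of all, which is near the background for both directions together. Falls alone made up 2.93% of all genes tested. In SD 1 rose (SLC38A2, an amino acid transporter) and 6 fell, or 20.6% against 5.41% of all. GDF15, a secreted stress cytokine, fell in each line, with log2 fold changes of -0.55 in SA (SE 0.06, edgeR's adjusted p = 1.35e-06), -0.60 in WT (SE 0.06, adjusted p = 8.91e-08) and -0.61 in SD (SE 0.07, adjusted p = 4.92e-07). Of the tRNA synthetases, AARS1 fell by 0.20 in SA, 0.20 in WT and 0.24 in SD on the log2 scale (adjusted p = 0.00688, 0.00387 and 0.00467). Between the lines with an AHR construct, GARS1, the glycyl-tRNA synthetase, fell in SD against WT (-0.27, SE 0.06, adjusted p = 0.0206), and DDIT4, an inhibitor of mTORC1, was lower in WT than in SA (-0.24, SE 0.05, adjusted p = 0.038), where it had risen against V (0.34, adjusted p = 1.40e-05).

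In the ER stress list, 0 genes rose against V, 4 fell in SA, 3 in WT and 1 in SD, of 43, 42 and 42 tested. These are 9.3%, 7.14% and 2.38% of the list. Of all genes tested, 7.17%, 5.24% and 5.41% were called in either direction in the same comparisons, and 3.29%, 2.93% and 2.49% fell. Against the share that fell, the list stood higher in SA and WT and near it in SD. Against the share in either direction, it was near the background in SA and WT and below it in SD. The abundant chaperones HSPA5 (BiP, which holds the 3 sensors inactive) and HSP90B1 (GRP94) fell in WT and SA. HSPA5 went from 1423 ± 35.9 CPM (standard deviation, n = 3) in V to 1118 ± 68.7 in WT and 1117 ± 52.1 in SA (log2 fold change -0.35 and -0.35, SE 0.04 and 0.05, edgeR's adjusted p = 1.23e-06 and 6.47e-06). HSP90B1 fell by 0.35 in WT and 0.34 in SA on the log2 scale (adjusted p = 6.75e-07 and 8.47e-06), and DNAJB11, a co-chaperone of BiP, by 0.29 in both (adjusted p = 0.00755 and 0.00558). UGGT1, the folding sensor of glycoproteins, fell by 0.17 in SA (adjusted p = 0.0455). DNAJB9, another co-chaperone of BiP, was the gene that fell in SD (-0.63, SE 0.17, adjusted p = 0.0232). Its log2 fold change was also negative in SA (-0.48, SE 0.17, edgeR's adjusted p = 0.094) and WT (-0.42, SE 0.16, adjusted p = 0.15), without a call. No gene of this list was called between SD and WT, SD and SA or WT and SA, where 7, 6 and 4 of 42 genes passed without adjustment (10.6%, 8.52% and 7.31% of all genes tested did).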

How the data were processed

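Poly-A RNA of 4 A549 lines was sequenced, in 3 libraries for each of V, WT, SA and SD. The authors trimmed reads with Trimmomatic v0.39 and used RSEM with GRCh38 transcripts. The deposited table holds the expected counts per gene and library, without normalization. RSEM divides reads between similar genes, so values that are not whole are uncertain. A second deposited table holds the authors' log2 fold changes, p-values and FDR for pairs of lines and was not used. The expected counts were rounded, and edgeR 4.0.16 (R 4.3.3) was run with these steps: filterByExpr (minimum count 10, minimum total 15), TMM factors (0.993 to 1.01), quasi-likelihood F-test per pair on its 6 libraries, Benjamini-Hochberg adjustment over all genes tested, threshold 0.05. SE were derived from F. The tests were tried on simulated data. Alternatives were DESeq2 size factors, DESeq2 1.42.0, no low-count filter, replicate number as a block, all 12 libraries in 1 fit and each library left out. CPM per kilobase used GENCODE v44 exon unions, and promoter windows came from RefSeq. No 2 libraries were copies of one another. The genes, their roles and the lists were chosen with earlier results of these data known. Values of all 12 libraries are given for genes called in at least 1 pair and for the sensors, ATF4, XBP1 and DDIT3. Of the other pathway lists at most the 5 genes with the smallest adjusted p per pair are named. Exceptions are SLC38A2 in SA, named after its value was seen, and DNAJB9 in SA and WT, given beside its call in SD. Figures were drawn with matplotlib 3.10.9.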

Additional observations from a re-analysis of the deposited data

How the results depend on the processing

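Of the 36 calls of the 38 genes in the 3 comparisons with V, none changed direction under any alternative. Some genes that were not called did: in SA against V the ER arm had 18 of 18 fitted levels below V, and 17 without V replicate 1, 2 or 3 or SA replicate 1 or 2. Of the 36 calls, 17 held in all 11 alternatives and 19 were lost in at least 1, of which 13 were lost only when a library was left out. Another 14 pairs of gene and comparison were called only in an alternative. With 1 library left out, the number called was 8 to 15 in SA, 5 to 12 in WT and 5 to 8 in SD against V, 0 to 3 in SD against WT, 0 in SD against SA, 0 to 1 in WT against SA and 8 to 17 in the test over the 4 lines. Of all genes, the same settings called 4.08% to 7.88% in SA, 2.88% to 4.77% in WT and 3.29% to 5.64% in SD against V. They called 0.296% to 0.966% in SD against WT, 0.0722% to 0.368% in SD against SA and 0.0131% to 0.162% in WT against SA. Over the 4 lines the range was 3.62% to 6.81%. Between SD and WT, where 0 genes were called, 3 were called with DESeq2 and 3 with all 12 libraries in 1 fit (MTHFD2, CALR and PDIA4), 4 without the low-count filter and 4 with the replicate block (these and PDIA3), and 3 without SD replicate 3 (MTHFD2, PDIA3 and PDIA4). Of all genes tested, 0.823% were called with DESeq2, 0.9% in the 1 fit, 0.98% without the filter and 1.65% with the block. Without SD replicate 3 that share was 0.966%. Between WT and SA, 1 gene (ASNS) was called without the filter, with the block and without SA replicate 1. In these settings 0.4%, 0.167% and 0.162% of all genes tested were called. The replicate numbers share no stated batch, and deviations of same-numbered libraries correlated weakly, at -0.04 to 0.11, so the numbers were not read as pairs. Between the lines with an AHR construct, same-numbered libraries correlated at 0.017 to 0.055. Those with different numbers correlated at -0.046 to 0.012, so each same-numbered value was higher. What lies behind this small shared part was not tested. With the replicate block, 15 genes were called in SA, 9 in WT and 7 in SD against V, 2 in SD against SA (CALR and PDIA4) and 19 over the 4 lines. Of all genes tested, the block called 9.02%, 3.43% and 4.46% against V, 1.1% in SD against SA and 8.12% over the 4 lines. Calls lost with the block were those of ASNS (adjusted p = 0.109), ALDH1L2 (0.0512), CANX (0.131) and MANF (0.0614) in WT and of PPP1R15A (0.0585) and ALDH1L2 (0.0562) in SD. Over all genes, the calls in SD against WT moved from 105 to 252 without the filter and to 245 with the block, in SD against SA from 33 to 153 and 165, and in WT against SA from 12 to 103 and 25, while all 12 libraries in 1 fit gave 5 in WT against SA. The block gave 507 in WT against V, against 774. The cause of these shifts was not tested. At these depths NUPR1, CTH, CHAC1 and DDIT3 had the lowest counts and the widest intervals.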
